A study of Rattus rattus with 18 samples.

Results

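The arcuate nucleus (ARC) of the hypothalamus was compared between rats fed a high-fat diet (HFD) and chow-fed rats by RNA-seq, pooling sedentary and running rats on the HFD. By their labels, 10 of the 18 libraries of the series belong to this comparison. They are 3 chow-sedentary (CS), 3 high-fat sedentary (HFS) and 4 high-fat running (HFR) libraries, so 7 HF libraries (HFS and HFR) stood against 3. The question was which genes differed from chow in the same direction in sedentary and in running rats. All animals were female Wistar rats (WSH in the labels), intact and without a transgene or drug. They ate standard chow or a 60% HFD from postnatal day 21, lived in pairs until postnatal day 90 and then spent 4 weeks alone in cages without (CS, HFS) or with (HFR) a running wheel, on the same diet. Chow-fed running rats were not analysed here, so in the HFR to CS comparison diet and running cannot be told apart. The animal experiment was run in 2 rounds, the labels do not give the round of a library, and its part in the values was not tested. Replicates are separate samples by their labels, and p-values measure the spread between these samples.

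The ARC lies at the base of the hypothalamus beside the third ventricle and reads hormonal and nutrient signals of energy state. Its *Pomc* neurons restrain feeding, its *Agrp* neurons drive it, and tanycytes, astrocytes, oligodendrocytes and microglia surround them. Immediate early genes such as *Fos*, *Junb* and *Nr4a1* are transcribed within minutes after a cell is stimulated, without need for new protein, and most encode transcription factors.

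The libraries held between 4680736 and 7494207 counts on genes, and no pair was identical. The punches expressed markers of the ARC. *Pomc*, the precursor of α-MSH, lay between 171 and 1067 CPM (counts scaled to a common library size with TMM factors), *Ghrh*, the growth hormone releasing hormone, between 29.4 and 125.9 CPM, and the GABA enzyme gene *Gad2* between 113.7 and 398 CPM. *Tbx3*, a transcription factor of ARC neurons, was low, from 1.12 to 15.001 CPM. *Npy*, *Agrp* and *Cartpt* have no identifier among the 606 with a symbol. CS replicate 2 and HFS replicate 2 stood apart from the other 8 libraries, in that their counts matched no animal in the study's own per-animal table, while each of the others matched 1. Some results, among them the counts of genes, are therefore also given without these 2 libraries. Reads with more than 1 alignment, which enter no gene's count, made up 20.2% to 20.6% of the CS libraries and 17.2% to 19.6% of the HF libraries. These ranges did not overlap (exact two-sided permutation p = 0.0167, 0.0833 after Benjamini-Hochberg adjustment over 5 measures of the libraries), and the part of this difference in the results was not tested.

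*Nr4a1* was the 1 gene that rose in HF by edgeR at an adjusted p under 0.1. It encodes an orphan nuclear receptor of the immediate early class (ENSRNOG00000007607). Its level was 10.5, 11.8 and 11.4 CPM in the CS libraries. In HFS it was 25.2, 30.9 and 28.2 CPM, and in HFR 32.3, 26.9, 33.0 and 37.5 CPM. Every HF library, sedentary or running, lay at more than the highest CS value, and the HFS and HFR values overlapped each other. The mean was 11.2 ± 0.66 CPM (SD, n = 3) in CS and 30.6 ± 4.19 CPM (SD, n = 7) in HF, a fold of 2.73. The fitted difference of HF minus CS was 1.45 in log2 units (standard error 0.18, adjusted p = 0.00573 by edgeR's quasi-likelihood test with Benjamini-Hochberg adjustment). An exact two-sided permutation test of the CPM values gave p = 0.0167, the smallest that 3 against 7 libraries allow, which any gene without overlap gets and which adds nothing to that description. These values rest on 53 to 66 reads per CS library and 146 to 276 per HF library.

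*Nr4a1* was also called in each activity group taken alone, set against the same 3 CS libraries, though in HFS by a narrow margin. The change was 1.32 (standard error 0.20, adjusted p = 0.096 by edgeR) in HFS and 1.53 (standard error 0.19, adjusted p = 0.00968 by edgeR) in HFR. Running rats exceeded sedentary rats on HFD by 0.21, with a 95% interval from -0.17 to 0.59, so neither a small decrease nor a rise of up to 0.59 with running is outside the interval. When each library was left out in turn, the HFS call was lost in 9 of 10 fits (log2 changes from 1.25 to 1.39, adjusted p from 0.0779 to 0.75 by edgeR) and kept without HFR replicate 4. The HFR call was lost in 1, without CS replicate 1 (adjusted p = 0.128 by edgeR). Both were lost with the replicate number as a block (adjusted p = 0.234 and 0.153 by edgeR), and without CS replicate 2 and HFS replicate 2 the HFS value was 1.29 (adjusted p = 0.374 by edgeR). An exact two-sided permutation test between HFR and HFS gave p = 0.171. The pooled call of *Nr4a1* was kept in all 10 fits that each left out 1 library, with log2 fold changes from 1.39 to 1.49 and adjusted p from 0.00658 to 0.0979 by edgeR. Without CS replicate 2 and HFS replicate 2 the pooled change was 1.49 (adjusted p = 0.0779 by edgeR).

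**Figure D1:**
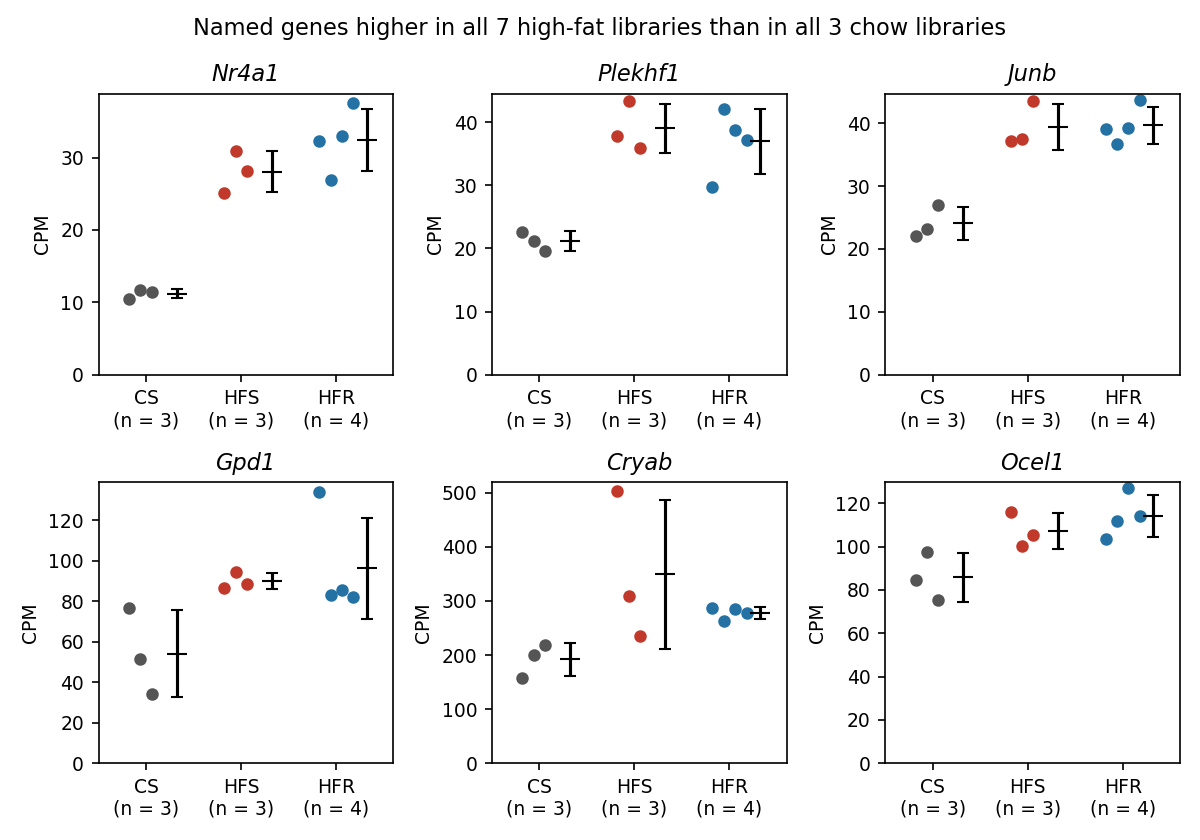
CPM (with TMM factors) of 6 genes in each CS, HFS and HFR library; points are libraries, and the horizontal and vertical bars are group mean and SD. All 7 HF libraries lie above all 3 CS libraries in each panel, from the wide gap of *Nr4a1* (at most 11.8 against at least 25.2 CPM) to the narrow gap of *Ocel1* (at most 97.7 against at least 100.3 CPM).

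No other gene passed the threshold of an adjusted p under 0.1. Of 11892 genes tested, 1 was called (0.00841%), and the next smallest adjusted p was 0.199. The count was 6 without HFS replicate 1, 4 without HFR replicate 4, 2 without CS replicate 1 or 2, and 1 when any of the other 6 libraries was left out. An unadjusted p under 0.05 was found for 581 genes (4.89%), of which 291 (2.45%) were higher and 290 (2.44%) lower in HF. The median standard error of a log2 fold change was 0.22, so small differences of single genes were not detectable with these libraries. DESeq2, the tool of the study, called 24 genes, 6 higher and 18 lower in HF, and all 24 had the same sign in HFS and in HFR over CS. The same held for all 581 genes at an unadjusted p under 0.05 by edgeR. Both activity groups share the CS libraries and enter the pooled difference the genes were chosen on, so these signs carry no information on whether the groups are alike. Its calls include 4 genes with a symbol, *Nr4a1*, *Plekhf1*, *Junb* and *Tmem63a*, the last named after its values were seen.

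A count without a model gave the genes whose libraries did not overlap. All 7 HF libraries lay above all 3 CS libraries for 91 genes (0.765%) and below them for 123 (1.03%), together 1.8% of those tested. The count has no test and is not evidence of a diet difference, and its genes are described here by their values. Only 15 of these 214 genes have a symbol, 13 higher and 2 lower in HF, because symbols were at hand for few identifiers. The study lists 9 of these 15 as changed between CS and HFS, a choice made on animals that include most of the same ones, so their direction is not independent evidence. The other 6 are *Gpd1*, *Cryab*, *Il4r*, *Fos*, *Il17ra* and *Hlx*.

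*Plekhf1*, which encodes a lysosomal phosphoinositide-binding protein, stood nearest to *Nr4a1* among the genes with a symbol. Its level was 22.6, 21.2 and 19.5 CPM in CS and between 29.7 and 43.3 CPM (median 37.8) in HF. HF exceeded CS by 0.84 in log2 units (standard error 0.16, adjusted p = 0.199 by edgeR), with 0.88 in HFS and 0.80 in HFR. It was past the threshold with DESeq2 (adjusted p = 0.00189), and without CS replicate 2 and HFS replicate 2 its value was 0.81.

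*Junb*, an AP-1 transcription factor gene, had nearly equal values in both activity groups. The CS libraries were at 22.1, 23.2 and 27.0 CPM. In HFS they were at 37.2, 37.4 and 43.6 CPM, and in HFR at 39.1, 36.7, 39.2 and 43.6 CPM. All 7 HF values were thus within a narrow band above CS. The fitted log2 difference was 0.72 (standard error 0.14, adjusted p = 0.263 by edgeR, 0.0034 by DESeq2). HFS and HFR gave 0.71 and 0.72, and their difference of 0.01 had a 95% interval from -0.33 to 0.34.

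*Fos*, the partner of *Junb* in AP-1, was also above CS in all HF libraries, with more spread. It was at 33.1, 21.9 and 40.1 CPM in CS, at 52.9, 46.9 and 42.9 CPM in HFS, and at 80.8, 92.9, 40.3 and 42.4 CPM in HFR. The lowest HF value lay just above the highest CS value, and 2 of the 4 HFR libraries were far above the others. Its fitted log2 difference was 0.85 (standard error 0.30, adjusted p = 0.994 by edgeR).

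*Gpd1* and *Cryab*, both absent from the study's list, lay above CS in every HF library. *Gpd1*, which encodes the cytosolic glycerol-3-phosphate dehydrogenase that links glycolysis to triglyceride synthesis, was at 76.7, 51.7 and 33.9 CPM in CS and from 82.1 to 133.8 CPM (median 86.6) in HF. In the fit, HF minus CS was 0.78 in log2 units (standard error 0.22), 0.73 in HFS and 0.83 in HFR. *Cryab*, a small heat shock protein gene of glia, was at 158, 199.96 and 218 CPM in CS and from 236 to 503 CPM (median 286) in HF. Its HF minus CS value was 0.68 (standard error 0.20), with 0.86 in HFS and 0.53 in HFR, and the highest value came from HFS replicate 1.

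The remaining 9 genes with a symbol and no overlap had adjusted p of 0.958 or more by edgeR. Higher in HF were *Mocs1*, which acts in molybdenum cofactor synthesis (0.72), *Tpmt*, the thiopurine methyltransferase (0.56), *Il4r*, a receptor subunit for interleukins 4 and 13 (0.47), *Ocel1* (0.37), *Il17ra*, the interleukin 17 receptor subunit (0.37), and *Snx17*, an endosomal sorting nexin (0.27). Their values ranged from 0.32 to 0.81 in HFS and from 0.19 to 0.65 in HFR. *Capg*, an actin-capping protein gene of macrophages, was higher by 1.03, but unevenly so. It was at 11.97, 24.95 and 20.4 CPM in CS, at 69.5, 26.4 and 63.9 CPM in HFS and from 26.5 to 31.5 CPM in HFR. Its HFR minus HFS difference was -0.91 (95% interval -1.55 to -0.27). Lower in HF were *Riok3*, an atypical kinase (-0.22), and the homeobox gene *Hlx* (-0.69). *Hlx* was at 5.80, 4.99 and 5.37 CPM in CS, from 4.16 to 4.83 CPM in HFS and from 1.49 to 3.13 CPM in HFR, so most of its difference lay in the running rats.

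**Figure D2:**
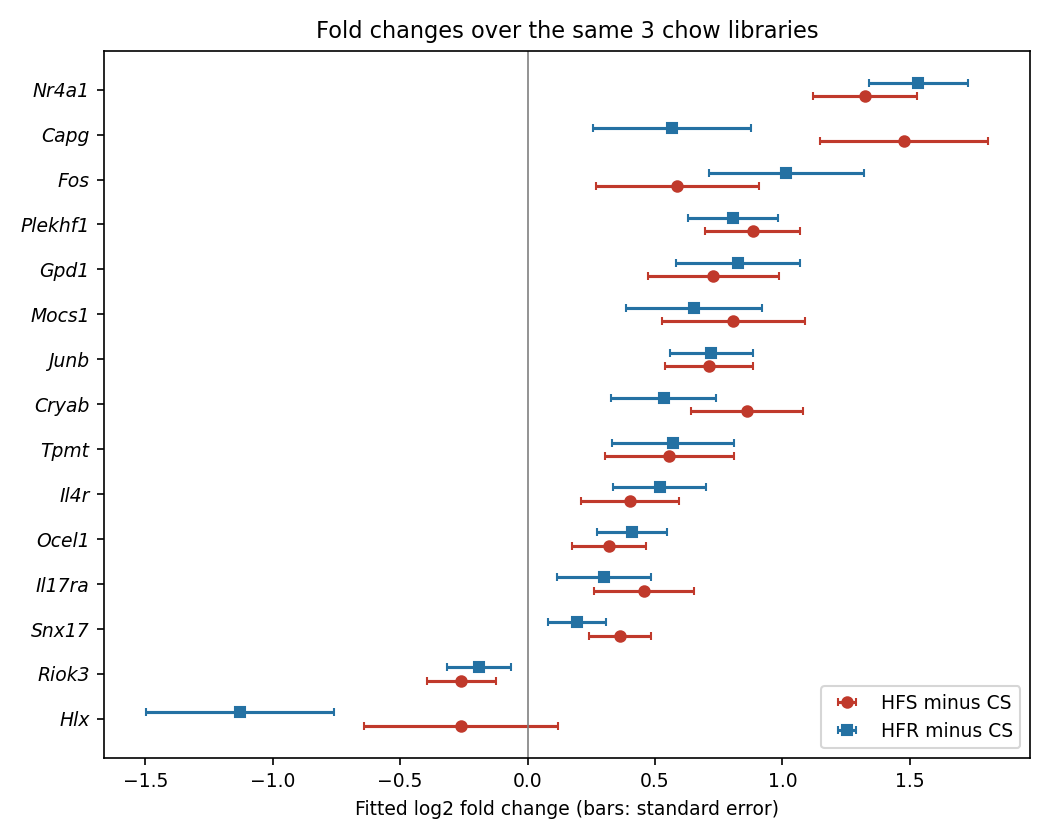
Fitted log2 fold changes (horizontal axis) of HFS minus CS and of HFR minus CS for the 15 genes with a symbol whose HF and CS libraries did not overlap; bars are standard errors, and both comparisons use the same 3 CS libraries. *Junb* has 0.71 and 0.72, while *Capg* (1.48 and 0.57) and *Hlx* (-0.26 and -1.13) differ most between the activity groups.

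Sedentary and running rats on HFD did not differ by a called gene. None of 11892 genes passed between HFR and HFS (smallest adjusted p = 0.989 by edgeR), with 504 genes (4.24%) at an unadjusted p under 0.05 and 1 called by DESeq2. Set against CS alone, 1 gene was called in HFS (0.00841%) and 2 in HFR (0.0168%), or 0 to 2 and 0 to 3 when each library was left out. Among the 214 genes whose HF and CS libraries did not overlap, 8 had an unadjusted p under 0.05 between HFR and HFS, *Capg* and *Hlx* among them.

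Genes without a symbol made up most of those lower in HF, and 2 are named here after their values were seen. ENSRNOG00000020620 was at 47.0, 40.6 and 45.1 CPM in CS and from 9.76 to 25.5 CPM (median 19.9) in HF. HF minus CS was -1.35 in log2 units (standard error 0.24, adjusted p = 0.199 by edgeR, 0.00189 by DESeq2), with -1.26 in HFS and -1.41 in HFR. ENSRNOG00000009779 was at 50.1, 62.7 and 32.2 CPM in CS, from 21.8 to 30.5 CPM in HFS and from 11.5 to 18.1 CPM in HFR. All 7 HF libraries were below CS, and the 4 HFR libraries were below the 3 HFS libraries. HF minus CS was -1.29 (adjusted p = 0.271 by edgeR, 0.0089 by DESeq2), with -0.89 in HFS and -1.69 in HFR. Beside *Nr4a1* it was the other gene called in HFR against CS (adjusted p = 0.0144 by edgeR). Its HFR minus HFS difference was -0.80 (95% interval -1.30 to -0.29).

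The immediate early genes were described as a group, of 26 listed genes with 18 tested, 5 of them on the study's list for CS against HFS. *Nr4a1* was called, and 6 genes were higher and 1 lower at an unadjusted p under 0.05 (38.9% of the list). The share was 4.89% over all genes, 16% over the study's list for CS against HFS and 7.53% over the named genes from the other experiment, and all symbols come from these sources, so the list is not a neutral sample. The higher ones include *Btg2*, an antiproliferative gene (0.64), and *Atf3*, a stress-induced transcription factor gene (1.68) that was at only 0.19 to 5.86 CPM. *Fosl1*, another AP-1 member, was the lower one (-1.22), at 0.64 to 5.99 CPM, but -0.38 without CS replicate 1, which alone held 5.99 CPM. *Btg2* had 1.00 without CS replicate 2. *Egr1*, a zinc-finger factor often read together with *Fos*, was at 31.2 to 56.5 CPM in CS and 38.2 to 50.9 CPM in HF, and its log2 difference of -0.03 (standard error 0.18) changed sign under some alternatives. The group median was 0.22, with 0.30 in HFS and 0.16 in HFR, against -0.0036 over all genes.

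**Figure D3:**
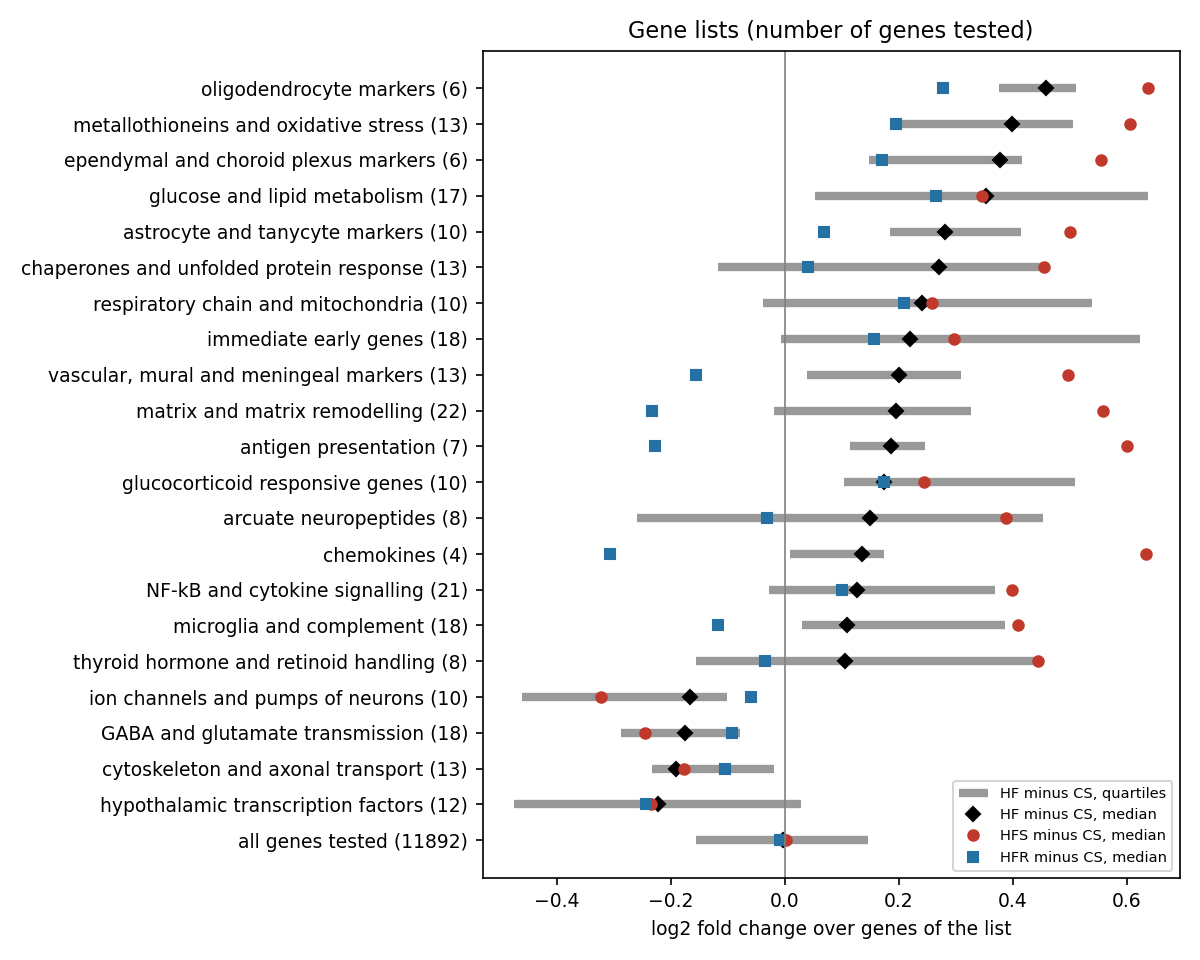
Median log2 fold change of HF minus CS (diamonds) with quartiles (grey bars) for 21 gene lists and all genes tested, with medians of HFS minus CS (circles) and HFR minus CS (squares). Both activity medians are above 0 for the oligodendrocyte, metabolic, respiratory, immediate early, metallothionein, ependymal, glucocorticoid, NF-kB, astrocyte and chaperone lists. Antigen presentation, matrix and vascular lists are among those with HFS above 0 and HFR below 0.

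The list of glucose and lipid metabolism had medians above 0 in both activity groups. Of 17 tested, 13 were higher and 4 lower in HF by any p, 6 were higher and 1 lower at an unadjusted p under 0.05 (41.2%), and none was called. The share was 4.89% over all genes and 16% over the study's list for CS against HFS. The metabolic median was 0.35, with 0.35 in HFS and 0.27 in HFR, and 12 of these genes are on the study's list. *Thrsp*, a lipogenic gene responsive to thyroid hormone and carbohydrate, was at 8.98, 14.4 and 11.2 CPM in CS and from 13.8 to 32.2 CPM (median 17.2) in HF. The fitted difference was 0.89 (standard error 0.30), with 0.87 in HFS and 0.90 in HFR. *Gfpt1*, the rate-limiting enzyme of the hexosamine pathway, was the lower one, at 65.9, 44.7 and 59.9 CPM in CS and 32.8 to 45.7 CPM in HF (-0.46, standard error 0.15).

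Of 6 genes tested from the list taken as oligodendrocyte markers, 5 were higher in HF at an unadjusted p under 0.05 (83.3%), and none was called. The share was 4.89% over all genes and 16% over the study's list for CS against HFS. How specific each listed gene is to oligodendrocytes was not tested. The study's list holds 5 of the 6, so their direction is not independent evidence. *Gal3st3*, a sulfotransferase gene named after its values were seen, was lower (-0.30, standard error 0.19). In a bulk punch, fewer or more cells of a type and less or more RNA per cell cannot be told apart. *Mbp*, the myelin basic protein gene, was at 7492, 12046 and 9335 CPM in CS and from 10195 to 17711 CPM (median 14021) in HF, with 4 of 7 HF libraries above all CS libraries. HF exceeded CS by 0.52 (standard error 0.18), with 0.67 in HFS and 0.39 in HFR. *Tf*, the transferrin gene expressed by oligodendrocytes (0.50), the serine protease gene *Klk6* (0.74), *Pmp22* (0.42) and *Plekhb1* (0.36) followed the same order of HFS above HFR. The summed level of the markers was 8670 to 13631 CPM in CS and 11392 to 20481 CPM in HF, and 5 of 7 HF libraries exceeded CS. Most of this sum was *Mbp* in every library, so it adds little to the *Mbp* values. *Mag*, *Mog* and *Mobp*, also on the list, have no identifier with a symbol here.

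**Figure D4:**
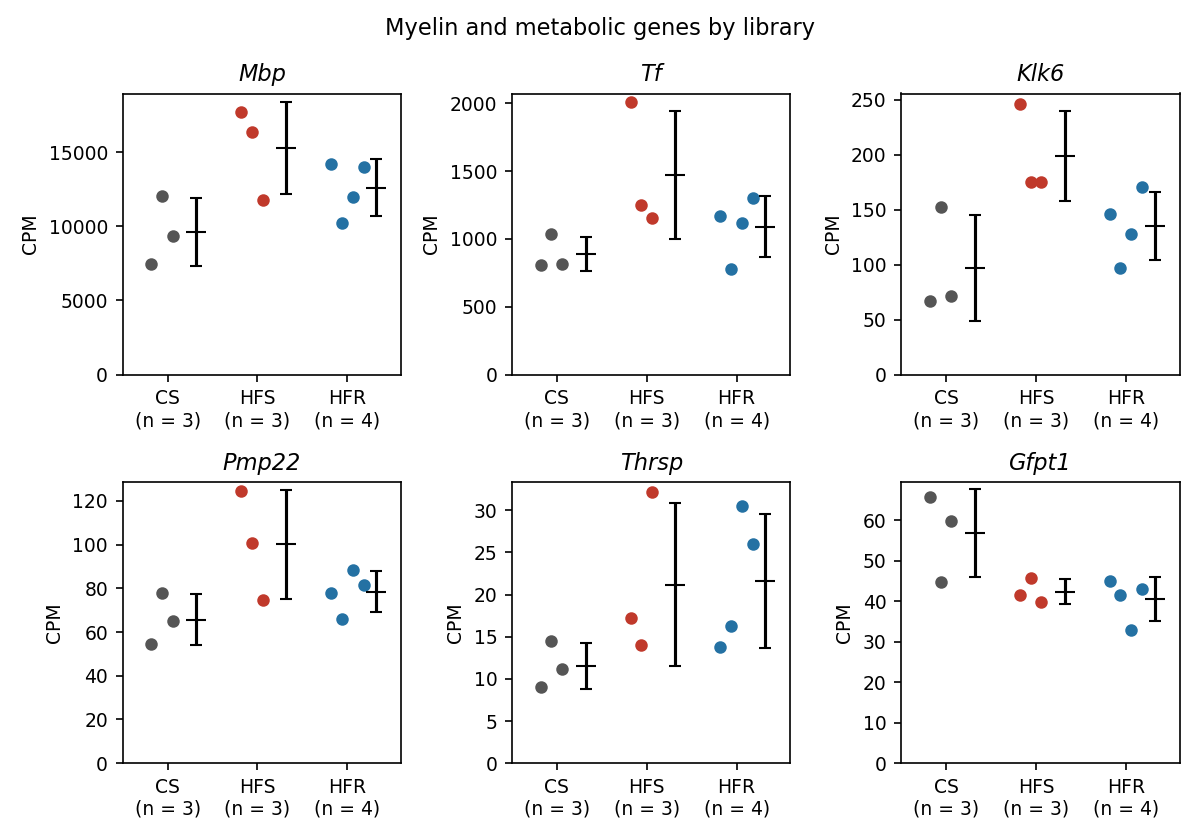
CPM of 4 genes of the oligodendrocyte list (*Mbp*, *Tf*, *Klk6*, *Pmp22*) and 2 metabolic genes (*Thrsp*, *Gfpt1*) in each CS, HFS and HFR library. Points are libraries, bars group mean and SD. The range of the 7 HF libraries overlaps that of the CS libraries in every panel, and the *Mbp* values run from 7492 to 17711 CPM.

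Other non-neuronal markers had larger medians in HFS than in HFR. At an unadjusted p under 0.05 were 10% of the astrocyte and tanycyte list, 7.69% of the vascular and 16.7% of the ependymal list. These shares were near or below the 16% of the study's list for CS against HFS, against 4.89% of all genes. That list holds 9 of the 10, 12 of the 13 and 6 of the 6 genes tested. For astrocyte and tanycyte markers the median was 0.28 (HFS 0.50, HFR 0.07), and *Cst3*, the abundant cystatin C gene, was the 1 of 10 at an unadjusted p under 0.05 (0.43). *Gfap*, the astrocyte filament gene, was at 508, 1347 and 470 CPM in CS and from 378 to 2650 CPM in HF, so its groups overlapped widely. Summed astrocyte and tanycyte markers, mostly *Cst3* in every library, were at 10483 to 18644 CPM in CS and 13249 to 20337 CPM in HF. Vascular, mural and meningeal ones were at 314 to 986 CPM in CS and 303 to 823 CPM in HF. The vascular median was 0.20 (HFS 0.50, HFR -0.16), with 1 of 13 tested at an unadjusted p under 0.05, *Cox4i2*. The ependymal and choroid plexus median was 0.38 (HFS 0.55, HFR 0.17), with 1 of 6, *Qrich2* (1.26, at 0.86 to 5.12 CPM), and summed levels of 46.6 to 88.4 CPM in CS and 67.2 to 100.9 CPM in HF. Of 8 pituitary markers, *Epcam* alone has an identifier (2.79 to 6.73 CPM). No marker with an identifier was at 0 in every library.

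Medians of the immune lists lay further above 0 in HFS than in HFR, where most were below 0. For comparison, 4.89% of all genes and 16% of the study's list had an unadjusted p under 0.05 in HF against CS. In the microglia and complement list 2 of 18 tested, *Tnfaip8l2*, a negative regulator of immune signalling (0.57), and *Capg*, were higher at an unadjusted p under 0.05 (11.1%). The median was 0.11, with 0.41 in HFS and -0.12 in HFR, and 8 of the 18 had an unadjusted p under 0.05 between HFR and HFS. Between HFR and HFS, 504 of all 11892 genes (4.24%) and 50 of 430 on the study's list for CS against HFS had one. *C1qb*, a chain of complement C1q, was at 102.0, 154 and 70.6 CPM in CS, from 160 to 184 CPM in HFS and from 105.5 to 140.4 CPM in HFR. Summed microglial markers were at 782 to 1232 CPM in CS and 754 to 1430 CPM in HF. Antigen presentation (0 of 7) and chemokine genes (0 of 4) had medians of 0.19 and 0.14, with HFS at 0.60 and 0.63 and HFR at -0.23 and -0.31. *Cxcl12*, a chemokine of stromal cells and neurons, was at 26.8 to 38.0 CPM in CS and 21.4 to 28.9 CPM in HF (-0.32). In NF-kB and cytokine signalling, *Il4r* and *Il17ra* were the 2 of 21 at an unadjusted p under 0.05 (9.52%), with a median of 0.13. Genes of the extracellular matrix and its remodelling (22 tested) had a median of 0.19, with 0.56 in HFS and -0.23 in HFR. *Plod1*, a collagen lysyl hydroxylase gene, was the 1 at an unadjusted p under 0.05 (0.38). Between HFR and HFS 8 of the 22 had one, and 20 of the 22 are on the study's list. *Cd44*, the hyaluronan receptor gene, was at 3.86 to 6.77 CPM in CS and 2.99 to 11.5 CPM in HF.

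Stress and respiratory genes were higher in small numbers. Shares at an unadjusted p under 0.05 stand beside 4.89% of all genes and 16% of the study's list for CS against HFS. The metallothionein share was near that 16%. *Ddit4*, an inhibitor of mTORC1 induced by stress and glucocorticoids, was at 84.4, 81.1 and 62.7 CPM in CS and from 72.3 to 128 CPM in HF, above CS in 6 of 7 libraries (0.46, standard error 0.16). *Sgk1*, a kinase gene induced by glucocorticoids, was at 81.0, 56.0 and 30.7 CPM in CS and from 62.0 to 122 CPM in HF (0.75, standard error 0.27). These were the 2 of 10 glucocorticoid responsive genes at an unadjusted p under 0.05 (20%), a list with 1 gene in the study's list, whose median was 0.17 (HFS 0.24, HFR 0.17). Chaperone and unfolded protein response genes had 3 of 13 (23.1%), *Cryab*, *Ddit4* and *Atf3*, with a median of 0.27. Metallothionein and oxidative stress genes had 2 of 13 (15.4%), the glutathione transferase genes *Gstt3* (0.36) and *Mgst1* (0.55), with a median of 0.40 that was 0.10 without CS replicate 3 and 0.66 without CS replicate 2. Thyroid hormone and retinoid genes had 2 of 8 (25%), *Thrsp* and the transporter gene *Slco2b1* (0.78), with a median of 0.11. Its medians were 0.44 in HFS and -0.04 in HFR, and -0.0024 without CS replicate 1 and 0.40 without CS replicate 2 for the pooled value.

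Respiratory chain and mitochondrial genes had a median of 0.24 (HFS 0.26, HFR 0.21). Of 10 tested, 3 had an unadjusted p under 0.05 (30%, against 4.89% of all genes and 16% of the study's list), all higher in HF. They were *Ndufs7*, a subunit of complex I (0.52), *Cox4i2*, a subunit isoform of complex IV (0.89), and *Mrpl54*, a mitochondrial ribosomal protein gene (0.30). *Cox4i2*, which is also on the vascular list, was at only 1.72 to 8.62 CPM, with 1.27 in HFS and 0.52 in HFR. *Cox6a2*, another complex IV isoform, was at 1.87, 13.5 and 6.87 CPM in CS, and its value of 1.00 (95% interval -0.07 to 2.08) was 0.55 without CS replicate 1 and 1.80 without CS replicate 2. *Ndufs7* depended on 1 chow library. It was at 206, 419 and 217 CPM in CS and between 385 and 431 CPM in all 7 HF libraries, so CS replicate 2 lay inside the HF range. Without CS replicate 2 its log2 fold change was 0.93 (adjusted p = 0.0146 by edgeR). Without CS replicate 2 and HFS replicate 2 together it was 0.92 (adjusted p = 0.0483 by edgeR).

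Neuronal genes gave no call. Arcuate neuropeptides had 0 of 8 tested at an unadjusted p under 0.05 and a median of 0.15 (HFS 0.39, HFR -0.03). *Pomc* was at 464, 875 and 171 CPM in CS, at 1012, 857 and 1063 CPM in HFS and at 182, 907, 1067 and 901 CPM in HFR. The CS libraries spanned most of the range of all 10, and the log2 difference of 0.77 had a 95% interval from -0.60 to 2.14. *Ghrh* had 0.61 (-0.28 to 1.51), and the satiety peptide gene *Cck* had -0.58 (-1.30 to 0.13), with -1.09 in HFS and -0.29 in HFR. *Trh*, the thyrotropin releasing hormone gene (-0.23), and *Nnat*, the imprinted neuronatin gene (0.40), also overlapped between groups.

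Genes of neuronal identity, transmission and structure had medians below 0 in both activity groups, on lists whose tested members all come from the study's list for CS against HFS. For hypothalamic transcription factors the median was -0.22 (HFS -0.23, HFR -0.24), with 1 of 12 at an unadjusted p under 0.05. *Runx1t1*, a corepressor gene, had -0.54, and *Nkx2-1*, a factor of the basal hypothalamus, 0.16. GABA and glutamate transmission had 0 of 18 and a median of -0.17, with *Gad2* at -0.42 (95% interval -1.06 to 0.23) and *Slc32a1*, the vesicular GABA transporter gene, at -0.18. Among ion channels and pumps the median was -0.17, with 1 of 10 at an unadjusted p under 0.05. *Kcnc2*, a potassium channel of fast-spiking neurons, had -0.48. Cytoskeleton and axonal transport had 2 of 13 (15.4%), the microtubule genes *Clasp1* (-0.53) and *Dcx* (-0.83), and a median of -0.19. That share was near the 16% of the study's list, against 4.89% of all genes.

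Many list members are on the study's list, among them 11 of 18 tested for microglia and complement, 20 of 22 for the matrix, 9 of 10 for astrocytes and tanycytes, 12 of 13 for metallothioneins and oxidative stress, 8 of 10 for the respiratory chain and 7 of 8 for neuropeptides. The medians also leaned on CS replicate 2. Without it the median was 0.83 for antigen presentation, 0.82 for chemokines, 0.77 for vascular markers, 0.74 for the matrix, 0.67 for astrocyte and tanycyte markers and 0.63 for neuropeptides. The oligodendrocyte median was 0.60 and that of the metabolic genes 0.47 without it, and these 2 moved less. Neuronal lists moved the other way, to -0.38 for transmission and -0.35 for ion channels. Without CS replicate 1 or 3 some medians changed sign, among them chemokines (-0.23 without CS replicate 1), the vascular list (-0.15 without CS replicate 1), transmission (0.03 without CS replicate 1) and the matrix (-0.12 without CS replicate 3). Single genes moved with the chow libraries too. Leaving out CS replicate 2 gave 1.44 for *Pomc*, 1.22 for *Ghrh*, 1.60 for *Gfap*, 1.23 for *Klk6*, 0.76 for *Cst3* and 0.70 for *C1qb*. Leaving out CS replicate 3 gave 0.46 for *Sgk1*, 0.44 for *Slco2b1*, 0.16 for *Mrpl54*, 0.08 for *Nnat*, -0.55 for *Dcx*, -0.32 for *Cck* and -0.17 for *Cxcl12*, and leaving out CS replicate 1 gave 0.34 for *Ndufs7*. Over the 10 fits that each left out 1 library, the oligodendrocyte median stayed between 0.33 and 0.60, the metabolic between 0.20 and 0.47, the respiratory between 0.15 and 0.41 and the immediate early between 0.13 and 0.32.

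The number of genes whose groups did not overlap was 214 over all libraries, 1014 without CS replicate 2, 678 without CS replicate 1, 522 without CS replicate 3 and from 256 to 330 when 1 HF library was left out, the 330 without HFS replicate 1. Counts over groups of unequal size are not comparable, since fewer libraries, above all in the smaller group, overlap less often whatever the diet, so the rise without a CS library says nothing of that library by itself. The 3 counts without a CS library can be set against each other, and that without CS replicate 2 was the highest. Among genes the study lists for CS against HFS, 69 of 430 (16%) had an unadjusted p under 0.05, with a median of 0.25 in HFS and -0.03 in HFR. Of 146 named genes outside that list, which come from the other experiment, 11 (7.53%) did.

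**Figure D5:**
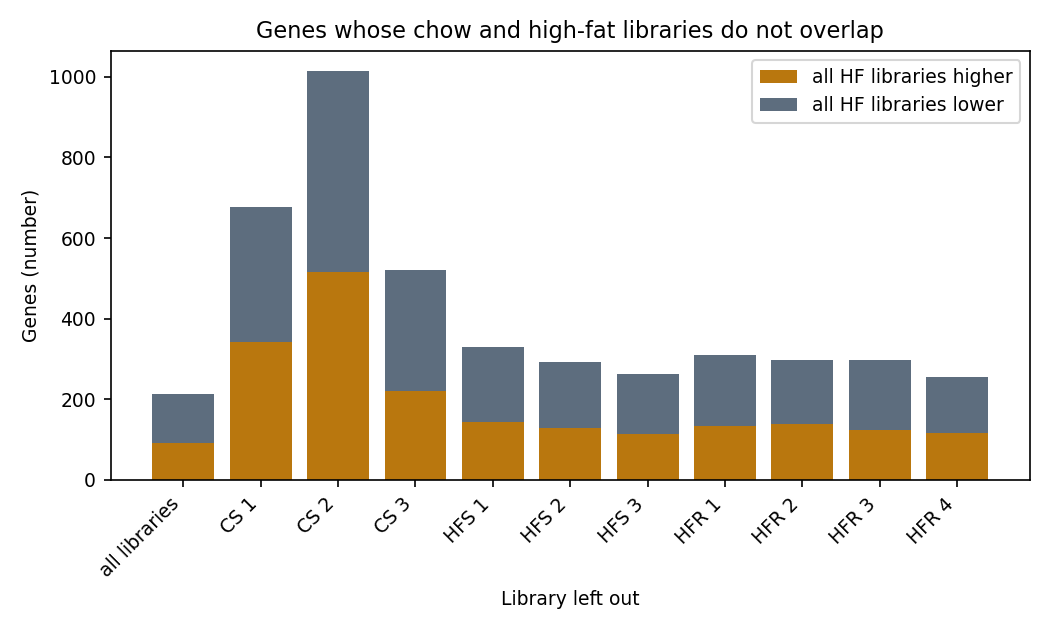
Number of genes (vertical axis) for which all HF libraries lie above or all below all CS libraries, with all 10 libraries and with each library left out in turn; stacked colours give the direction. The bars reach 1014 without CS replicate 2 and 214 with all libraries.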

How the data were processed

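ARC punches (TriReagent RNA) of 3 CS, 3 HFS and 4 HFR rats were profiled with a bulk adaptation of MARS-seq. The authors trimmed with Cutadapt, aligned to Rnor6 with STAR 2.7.9a, used SAMtools to drop duplicates, and ran HTSeq 0.13.5 without strand to obtain counts for Ensembl genes, so overlapping and antisense genes cannot be separated. GEO labels name the species *Rattus rattus*. The annotation release is not given in the sources used here. The deposited files give unnormalized counts for 32883 genes. Rows for unassigned reads (41.6% to 48.7% of a library's total) were left out.

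Tests were run with edgeR 4.0.16 in R 4.3.3 (filterByExpr, TMM, factors 0.983 to 1.04, robust quasi-likelihood test, Benjamini-Hochberg adjustment over 11892 genes, called at adjusted p under 0.1). HF minus CS was fitted on 2 groups, the other contrasts on 3 groups. DESeq2 1.42.0, limma 3.58.1, other normalizations, filters, a replicate block and left-out libraries were alternatives. Exact permutation tests used scipy 1.17.1. Scripts were tested on simulated data.

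Symbols came only from the study's gene lists. Named genes were those called, those with a symbol and no overlap between HF and CS (up to 12 per direction by p), and up to 4 per list by p plus its first member and the most abundant marker. *Egr1*, *Fosl1*, *Klk6*, *Tmem63a*, *Gal3st3* and the identifiers without symbol were named after values were seen. Members and lists were chosen with earlier results of these data known. Lists were described by counts and medians, without a set test. Some genes chosen by this rule are not reported here.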

Additional observations from a re-analysis of the deposited data

Results flagged for a closer look

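Among the 128 groups of libraries examined, for 61 genes and the library measures, 9 held a library far from the others by Dixon's criterion, which chance alone meets in about 1 of 20 groups. *Gpd1* was at 133.8 CPM in HFR replicate 1, far from the others both among the 7 HF and among the 4 HFR libraries. HFS replicate 1 had the highest values of *Cryab* (503 CPM), *Tf* (2009 CPM) and *Tbx3* (15.001 CPM) among the HF libraries. *Nnat* was at 3065 CPM in HFS replicate 3. *Gal3st3* was at 24.7 CPM in HFR replicate 2, below the other 3 HFR libraries. *Pomc* was at 182 CPM in HFR replicate 1, below the other 6 HF libraries. Reads outside annotated genes made up 22.4% of HFR replicate 3, below the other HFR libraries.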

How the results depend on the processing

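In HF vs. chow, edgeR called 1 gene, and the count was 24 with DESeq2, 6 without a filter on low counts, 2 with 3 groups weighted equally, 4 with limma-voom, 2 without CS replicate 2 and HFS replicate 2 together, and 1 to 6 when each library was left out. Called genes with 1 sign in HFS and HFR were all of the called genes each time, as shared controls and the choice on the pooled difference favour (24 with DESeq2, 2 without both those libraries, 1 to 6 with 1 library left out). HFS vs. CS had 0 calls at an adjusted p under 0.05, 4 with DESeq2 and 0 to 2 with 1 library left out. HFR vs. CS had 18 with DESeq2, 8 without the filter and 0 to 3 with 1 library left out, and HFR vs. HFS had 1 with DESeq2. Genes without overlap numbered 122 under a stricter filter (mean count 50), 1223 without both libraries and 256 to 1014 with 1 library left out. With the replicate number as a block, calls were 2 in HF vs. chow (*Nr4a1* 1.39, adjusted p = 0.0825 by edgeR), 0 in HFS vs. CS, 0 in HFR vs. CS and 2 in HFR vs. HFS. Deviations from the group mean correlated at r from -0.12 to 0.15 between libraries sharing a number. Between libraries with different numbers r ran from -0.23 to 0.22. With so few libraries per group these values cannot show whether the numbers pair samples. Signs reversed for *Tbx3* (0.92 without both libraries, -0.74 to 0.76 with 1 left out), *Egr1* (0.011 with the block, 0.0086 with limma-voom, -0.21 to 0.21), *Gad2* (-0.76 to 0.052) and *Slc32a1* (-0.37 to 0.12). The cause was not tested. No scaling moved the median of all genes by over 0.1. Of the alternatives computed for 61 named genes, 1192 kept direction and side of the threshold, 12 gained a call, none lost it and 7 reversed. As *Nr4a1* alone was called in the main fit, no other gene could lose a call. Staying uncalled with the same sign counted as kept, whatever the size, as for *Pomc* (0.36 to 1.44 with 1 library left out). Depth and 3 chow libraries limit what could be detected.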
